A study of Homo sapiens with 3 samples.

Results

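The comparison described here sets MNNG/HOS cells after 3 days of transforming growth factor beta 1 (TGF-beta1) against untreated MNNG/HOS cells. It uses 2 of the 3 arrays of the study and all 45033 probe sets on them, of which 18866 could be given a gene symbol, for 17185 genes. MNNG/HOS is an established human osteosarcoma line. All cells were grown without serum in DMEM/F12 medium, and spheres that had formed on their own were removed before the adherent cells left behind were cultured further. The day 3 culture then received 4 ng/mL TGF-beta1 for 3 days and is called mesophase by the submitters. The untreated culture was kept without the factor for 5 days and is the residual adherent fraction. Whether adherent cells, floating cells or both were taken at day 3 is not stated in the labels. Treatment and days in culture therefore changed together and cannot be told apart, and the fraction collected may have changed with them. The remaining array, of spheres collected after 5 days of TGF-beta1, enters only the cutoffs on level.

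TGF-beta1 is a secreted cytokine that binds a pair of kinase receptors and acts mainly through the transcription factors SMAD2 and SMAD3, with further signals through MAP kinases. In cells of mesenchymal origin it is known for inducing extracellular matrix, contractile proteins and protease inhibitors, and for slowing the division of many cell types. Cells secrete it in a latent form that is stored in the matrix and has to be released before it can act. In bone it is deposited by osteoblasts and freed when bone is resorbed.

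Each value below is an intensity, a linear measure of brightness without a unit, and differences are given as day 3 over untreated on a fold scale or as log2 differences. With 1 array on each side there was no replicate, so no test and no error could be computed, and every difference is a description of these 2 arrays. A gene is called higher or lower at 2-fold or more, which is a rule of size. The level filter keeps the 9285 genes with an intensity of 685 or more, the median over all genes and arrays, on at least 1 of the 3 arrays. No detection calls were used, so low values cannot be told from background. The lowest quartile of gene values lay under an intensity of 63.4, and folds that involve such values are marked. In these bulk samples fewer cells of a type and less RNA per cell cannot be told apart.

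At day 3 12 of 40 collagen genes were higher than in untreated cells and 1 was lower. Of 33 genes listed as targets of YAP and the TEAD transcription factors 7 were lower and 0 higher. Among genes that were bright on both arrays, CSPG4, a membrane proteoglycan, was 7.60-fold higher and DKK1, a secreted Wnt antagonist, was 5.55-fold lower. Genes of growth factor signalling split by family member, with IGFBP5, an insulin-like growth factor binding protein, 13.4-fold higher and the epidermal growth factor receptor gene EGFR 3.04-fold lower. Genes of ribosomes, the respiratory chain, the proteasome and HOX clusters had 0 members past 2-fold. Apart from the HOX genes nearly all of these passed the level filter, and bright genes in general were seldom past 2-fold. In the brightest of 10 equal groups by level the share was 0.756%. Of the 9285 genes past the filter, 427 (4.6%) were higher by 2-fold or more and 319 (3.44%) were lower by as much. Over all 17185 genes with no filter, which is the background for the gene lists below, 991 (5.77%) were higher and 904 (5.26%) lower.

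How far the arrays differed depended on level. When the genes were divided into 10 equal groups by their mean level, the interquartile range of the log2 difference was widest in the fourth group, at 1.22 for intensities of 98.5 to 271. It was narrowest in the brightest group, at 0.28 for intensities above 7256. The share of genes past 2-fold in either direction was 25.8% in the fourth group and 0.756% in the brightest, where 13 of 1719 genes passed. The lowest group, with intensities under 18.1, had 4.01% past 2-fold. The median difference also moved with level, from 0.20 in the third group to -0.10 in the sixth. A list of genes at the third level would sit slightly above 0 and one at the sixth slightly below for that reason alone. Of the 63 gene lists used below, 47 had a median above 0, and 49 did after each gene's difference was centred on the median of its level group. A 2-fold difference was rarer in bright genes than in dim ones, apart from the dimmest groups.

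**Figure D1:**
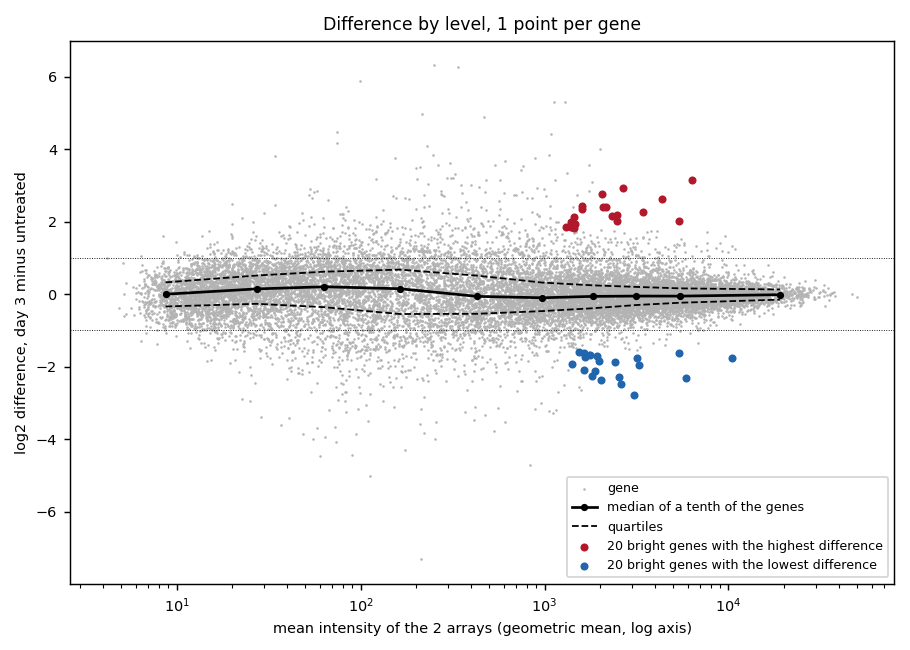
Log2 difference (day 3 minus untreated) against the geometric mean intensity of the 2 arrays on a log axis, with 1 grey point for each of 17185 genes; the black line joins the medians of 10 equal groups by level, dashed lines their quartiles, and dotted lines mark 2-fold. Differences spread most at intensities of 98.5 to 271, with an interquartile range of 1.22, and least above 7256, at 0.28, and the coloured points are the 20 highest and 20 lowest of the genes bright on both arrays.

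Probe sets of 1 gene gave a partial check of the measurement, since they share the RNA and the array but not all probes. Of 1349 genes with several probe sets, 229 had at least 1 probe set past 2-fold. In 195 of these (85.2%) all probe sets differed in the same direction, and in 79 all were past 2-fold. Among genes past the level filter the same held for 80 of 87 (92.0%) and 36 of 87. In the remaining genes the probe sets disagreed on size or direction. Over all 1349 genes the gap was largest for NR4A3, an orphan nuclear receptor gene under the filter, at -1.60 and 2.97, past 2-fold both ways. Among genes past the filter it was largest for PALM2AKAP2, an anchoring protein of protein kinase A, where 3 probe sets lay between -2.02 and 0.10 in log2. It was followed by RNF6, a ubiquitin ligase gene, at -2.01 and -0.19, and by TCOF1, which serves ribosomal RNA synthesis, at -1.68 and 0.05. NF2, the gene of the tumour suppressor merlin, lay between -1.68 and -0.03 over 3 probe sets. The neuropilin gene NRP2 lay between 0.09 and 1.68, also over 3. For such genes the value used here, the mean over probe sets, stands for probe sets that differ, and the cause of the gap was not tested.

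**Figure D2:**
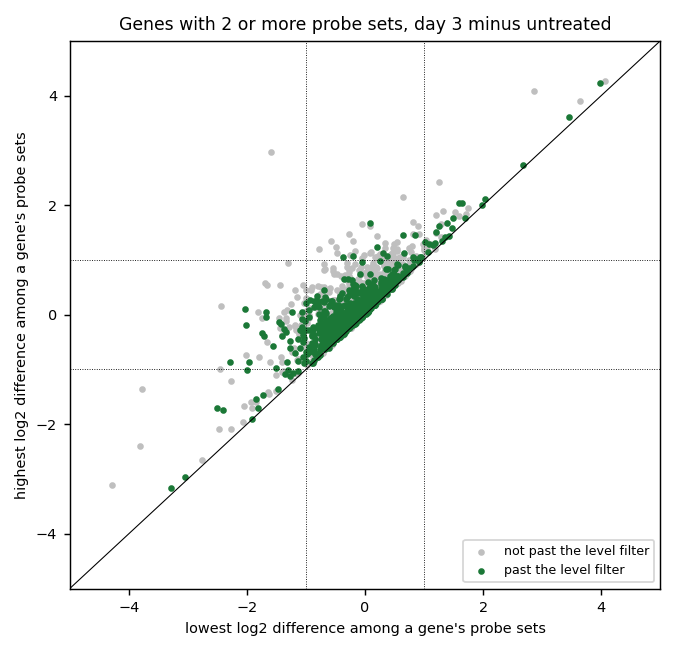
For each of 1349 genes with 2 or more probe sets, the lowest log2 difference among its probe sets (x axis) is set against the highest (y axis); the solid line marks equal values and dotted lines mark 2-fold. Green points are genes past the level filter, most of which lie near the line, and among them the gap was largest in PALM2AKAP2, at -2.02 and 0.10.

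Folds are most secure where both values are well above the dim range. On both arrays 8149 genes reached an intensity of 685, and of these 183 (2.25%) were higher at day 3 by 2-fold or more and 128 (1.57%) lower. Among them 14 passed 4-fold in the higher and 8 in the lower direction. CSPG4, which marks pericytes and some mesenchymal cells, had an intensity of 7352 at day 3 and 967 in untreated cells. VASH1 encodes vasohibin 1, a tubulin carboxypeptidase and inhibitor of vessel growth, and its intensity was 5361 at day 3 and 786 in untreated cells. BMP8B, a ligand of the BMP family, had 3727 at day 3 and 692 in untreated cells. Each of these genes was over 5-fold higher. TSC22D3, a leucine zipper gene induced by glucocorticoids, was 5.30-fold higher, with 4967 at day 3 and 938 in untreated cells. The secreted olfactomedin family member OLFML2A was 5.26-fold higher and EFHD1, a calcium-binding protein of mitochondria, 5.07-fold. ARHGEF40, a guanine nucleotide exchange factor gene, was 4.80-fold higher and reached 7535 at day 3.

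MDFI, an inhibitor of MyoD family factors, was 4.52-fold higher and the LIM domain gene CRIP2 4.07-fold. GSN encodes gelsolin, which severs and caps actin filaments, and its intensity was 10843 at day 3 and 2704 in untreated cells, a 4.01-fold difference. MRC2 encodes Endo180, a receptor that takes up collagen for breakdown, and was 3.82-fold higher. GABRE, a GABA receptor subunit gene, was 3.95-fold higher, the organic anion exporter gene ABCC3 3.78-fold and CROCC, which builds the rootlet of cilia, 3.60-fold. KRT83, a hair keratin gene with close relatives, was 4.34-fold higher. FOS, COL1A1, JUNB, IFI44 and FN1 complete the 20 highest, from 8.84-fold for FOS to 3.52-fold for FN1.

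In the other direction the bright genes included secreted regulators and signalling inhibitors. TMEM156, a transmembrane protein gene, had the lowest difference, with an intensity of 1167 at day 3 and 7971 in untreated cells. DKK1 had 1108 at day 3 and 6146 in untreated cells. G0S2 encodes an inhibitor of the triglyceride lipase ATGL and was 5.16-fold lower, with 892 at day 3 and 4599 in untreated cells. ID3, which holds back basic helix-loop-helix factors, had 2627 at day 3 and 13065 in untreated cells. The 4 genes were between 4.97-fold and 6.83-fold lower. AMOTL2, an angiomotin family member that binds YAP, was 4.82-fold lower, and so was CCDC85B, at 4.87-fold. TFPI2, a Kunitz-type inhibitor of serine proteases, was 4.24-fold lower, the long pentraxin gene PTX3 3.86-fold and the stanniocalcin gene STC2 3.65-fold. SOCS2, which restrains growth hormone signalling, was 3.60-fold lower. AK5, an adenylate kinase gene, remained bright, with 5712 at day 3 and 19327 in untreated cells. NEXN encodes nexilin, an actin-binding protein, and was 3.09-fold lower. ITGB2, the beta 2 integrin known from leukocytes, was 3.07-fold lower and TXNIP, a thioredoxin inhibitor induced by glucose, 3.04-fold. OTULINL, NEK11, the adhesion receptor gene ADGRG6, RBMS2, LACTB and ZNF804A were between 3.21-fold and 4.31-fold lower.

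**Figure D3:**
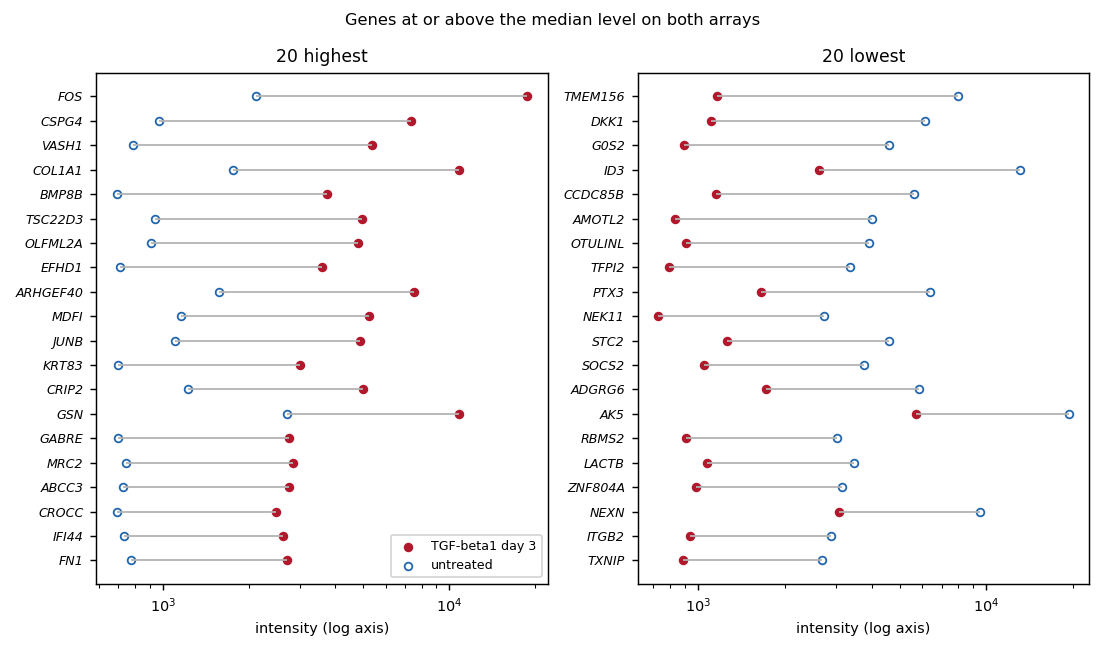
Intensities on a log axis of the 20 genes with the highest (left panel) and the 20 with the lowest difference (right panel) among genes at or above an intensity of 685 on both arrays; filled points are TGF-beta1 day 3, open points untreated, 1 array each. Differences run from 8.84-fold for FOS to 3.52-fold for FN1 on the left, and from 6.83-fold for TMEM156 to 3.04-fold for TXNIP on the right.

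A CArG box, the binding motif of serum response factor (SRF), lies in the 250 bases before the listed start of 6 of the bright genes past 2-fold, and their windows are shown because this motif, chosen after the shares were seen, stood furthest in proportion from the share in all windows. SRF links actin and MAP kinase signals to immediate early and contractile genes. EGR1 and ACTC1, a zinc finger factor of the immediate early class and cardiac alpha actin, are textbook SRF targets. The windows are shown 5′ to 3′ on the gene's strand, from RefSeq on GRCh38.p14, with the CArG boxes in capitals, and end 1 base before the start.
LEF1, chr4:108166302-108166551, minus strand: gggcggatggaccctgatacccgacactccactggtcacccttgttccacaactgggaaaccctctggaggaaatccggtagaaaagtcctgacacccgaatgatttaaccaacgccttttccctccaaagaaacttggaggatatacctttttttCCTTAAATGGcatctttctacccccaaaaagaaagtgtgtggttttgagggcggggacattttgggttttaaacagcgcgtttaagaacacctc
H2BC21, chr1:149886683-149886932, minus strand: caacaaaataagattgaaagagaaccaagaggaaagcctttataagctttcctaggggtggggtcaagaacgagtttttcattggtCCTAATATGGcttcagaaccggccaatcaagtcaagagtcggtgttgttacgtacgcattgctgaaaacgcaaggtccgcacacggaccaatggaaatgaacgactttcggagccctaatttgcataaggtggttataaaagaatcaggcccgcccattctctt
EGR1, chr5:138465229-138465478, plus strand: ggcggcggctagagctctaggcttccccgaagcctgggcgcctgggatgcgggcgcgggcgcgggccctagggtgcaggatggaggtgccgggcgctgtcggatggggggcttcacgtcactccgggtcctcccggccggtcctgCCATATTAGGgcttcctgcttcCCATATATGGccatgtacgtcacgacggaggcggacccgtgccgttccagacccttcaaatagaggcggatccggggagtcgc
ACTC1, chr15:34795550-34795799, minus strand: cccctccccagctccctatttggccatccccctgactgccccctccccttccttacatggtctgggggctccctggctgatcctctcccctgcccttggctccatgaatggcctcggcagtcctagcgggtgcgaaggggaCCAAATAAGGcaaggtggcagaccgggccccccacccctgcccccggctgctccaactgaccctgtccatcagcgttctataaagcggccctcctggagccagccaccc
SSPN, chr12:26195086-26195335, plus strand: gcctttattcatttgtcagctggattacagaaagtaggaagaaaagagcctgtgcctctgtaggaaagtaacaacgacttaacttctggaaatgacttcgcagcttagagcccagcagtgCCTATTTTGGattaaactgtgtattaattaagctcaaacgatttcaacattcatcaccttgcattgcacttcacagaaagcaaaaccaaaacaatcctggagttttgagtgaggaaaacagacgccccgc
ARHGDIB, chr12:14948897-14949146, minus strand: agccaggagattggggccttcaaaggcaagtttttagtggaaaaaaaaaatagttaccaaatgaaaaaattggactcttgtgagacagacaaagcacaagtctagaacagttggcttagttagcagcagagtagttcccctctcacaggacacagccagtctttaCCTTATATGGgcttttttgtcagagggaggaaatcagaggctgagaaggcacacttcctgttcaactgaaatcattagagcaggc

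EGR1 holds 2 boxes, 105 to 96 and 83 to 74 bases before its start, and had an intensity of 11636 at day 3 and 5022 in untreated cells, a 2.32-fold difference. In ACTC1 the box lies 109 to 100 bases before the start, and the intensity was 5438 at day 3 and 2503 in untreated cells. LEF1, a partner of beta-catenin, was 3.33-fold higher, the histone gene H2BC21 2.47-fold and SSPN, which encodes sarcospan, 2.07-fold. ARHGDIB, an inhibitor of small GTPases, was lower, with 4289 at day 3 and 10937 in untreated cells. Both strands were searched in the first listed window of each gene, and motifs may overlap. A CArG box was found in 5 of 139 windows of bright genes at least 2-fold higher (3.60%) and in 1 of 104 of those lower (0.962%), against 1.14% of 27305 windows in all and 1.01% of the 6809 windows of bright genes. The AP-1 motif TGANTCA was in 4.32% of the higher and 5.77% of the lower genes' windows, against 6.60% in all and 3.45% of bright genes. For the cyclic AMP element TGACGTCA the share was 2.16% of the higher and 4.81% of the lower genes' windows, against 1.77% in all and 3.45% of bright genes. The TEAD motif GGAATG was in 9.35% of the higher and 12.5% of the lower, against 11.9% in all and 9.22% of bright genes. The short SMAD motif CAGAC was in 41.0% of the higher and 38.5% of the lower, against 37.8% in all and 35.7% of bright genes. For all motifs but the CArG box and the SMAD motif, the direction in which at least 1 of the 2 sets stood from the background depended on which of these backgrounds was taken. These are counts of letters in a short window, and no test was made of them. In the list of actin genes and SRF targets described below, 3 of 37 genes were higher and 3 lower, with a median log2 difference of -0.003.

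Storage and release of TGF-beta come first among the gene groups. Of 22 measured genes of this list 4 were higher and 1 lower by the 2-fold rule, with a median log2 difference of 0.20 against -0.01 over all genes. FURIN, the protease that cuts the TGF-beta precursor, was 2.81-fold higher, with 2176 at day 3 and 775 in untreated cells. EMILIN1, a matrix protein that inhibits this cleavage, was also higher, by 2.84-fold, with 4941 at day 3 and 1738 in untreated cells. ITGB8, an integrin subunit that releases TGF-beta from its latent form, and LRRC32, which holds the latent form on the cell surface, were higher but dim, with 358 at day 3 and 118 in untreated cells for ITGB8, and 90.8 at day 3 and 23.4 in untreated cells for LRRC32. LTBP1, a binding protein of latent TGF-beta, was within 2-fold, with 2042 at day 3 and 2366 in untreated cells.

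Genes taken as standard readouts of TGF-beta did not move alike. The matrix protein gene TGFBI had an intensity of 23595 at day 3 and 17159 in untreated cells and lay within 2-fold, as did CCN2, the connective tissue growth factor gene, with 6140.4 at day 3 and 9156 in untreated cells, where the day 3 value was the lower. THBS1, an activator of latent TGF-beta, differed by -0.04 in log2 and TNC, the matrix protein tenascin C, by 0.28. POSTN, which encodes periostin, was in the lowest quartile on both arrays. LOX, which crosslinks collagen, was 2.62-fold lower, with 541 at day 3 and 1418 in untreated cells. IL11, a cytokine often induced by TGF-beta, was within 2-fold, with 2238 at day 3 and 3407 in untreated cells.

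Collagens are the fibres and networks that TGF-beta is best known for inducing. Of 40 measured chains 12 were at least 2-fold higher and 1 lower, 7 of the higher ones past the level filter, and the median was 0.48, and 0.39 after centring on level. The higher share, 30%, stood beside 5.77% over all genes. Type VI collagen, a filament of the pericellular matrix, had 3 chains bright on both arrays. COL6A1 was higher, with 13303 at day 3 and 5520.2 in untreated cells, and so was COL6A2, with 9411 at day 3 and 3255 in untreated cells, while COL6A3 was within 2-fold, with 16626 at day 3 and 11406 in untreated cells. COL5A1, which sets the diameter of collagen fibrils, had 13852 at day 3 and 6092 in untreated cells, and COL7A1, of anchoring fibrils, 14993 at day 3 and 6651 in untreated cells. COL6A1, COL6A2, COL5A1 and COL7A1 were bright on both arrays and between 2.25-fold and 2.89-fold higher. Chains known from cartilage were also higher from lower values, with COL9A2 at 1274 at day 3 and 303 in untreated cells and COL2A1 at 389 at day 3 and 121 in untreated cells. COL2A1 passed the level filter only through the sphere array. COL24A1, COL3A1 and COL8A2 were higher from untreated values in the lowest quartile, which leaves their folds uncertain in size. COL17A1, an epithelial anchoring collagen, was 2.65-fold lower and not past the filter.

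Chondrocyte genes, a list that shares COL2A1 and COL9A2 with the collagens, had 2 of 29 higher and 1 lower, shares near those over all genes, with a median of 0.44, and 0.26 after centring on level. Enzymes that modify and secrete collagen had 3 of 28 members past 2-fold in the higher direction, 2 lower and a median of 0.07. P4HA2, a prolyl hydroxylase subunit, was 2.22-fold higher and BMP1, which removes the C-terminal propeptide of procollagens, 2.26-fold higher. The collagen chaperone gene SERPINH1 was within 2-fold, with 5276 at day 3 and 4457 in untreated cells. Among matricellular and elastic fibre genes 5 of 33 were higher and 1 lower, with a median of 0.54. MFAP2, a component of elastin-associated microfibrils, had 14789.5 at day 3 and 5526 in untreated cells. MFAP4 had 903 at day 3 and 76.0 in untreated cells and SMOC1, a calcium-binding matrix protein, 900.1 at day 3 and 154 in untreated cells. EDIL3, an integrin ligand, was lower, with 149 at day 3 and 1507 in untreated cells.

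Proteoglycans included CSPG4, the gene of the bright set described above, and members in the lowest quartile of intensity. VCAN, the large chondroitin sulphate proteoglycan versican, had 1047 at day 3 and 439.6 in untreated cells, and the list had 6 of 29 members higher and 3 lower. Of the enzymes that build and trim their sugar chains, CHST15, a chondroitin sulphotransferase, was 3.28-fold higher and SULF2, which removes sulphate from heparan sulphate outside the cell, 2.37-fold. HS6ST3, a heparan sulphotransferase, was 11.5-fold lower, with 75.7 at day 3 and 867 in untreated cells. Basement membrane genes split, with HMCN1 2.75-fold higher and the laminin 332 chain gene LAMB3 3.01-fold lower, with 687 at day 3 and 2069 in untreated cells. Among integrins, which bind these matrices, 5 of 26 were higher and 1 lower, and the collagen receptor gene ITGA1 had 3844 at day 3 and 1862 in untreated cells.

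**Figure D4:**
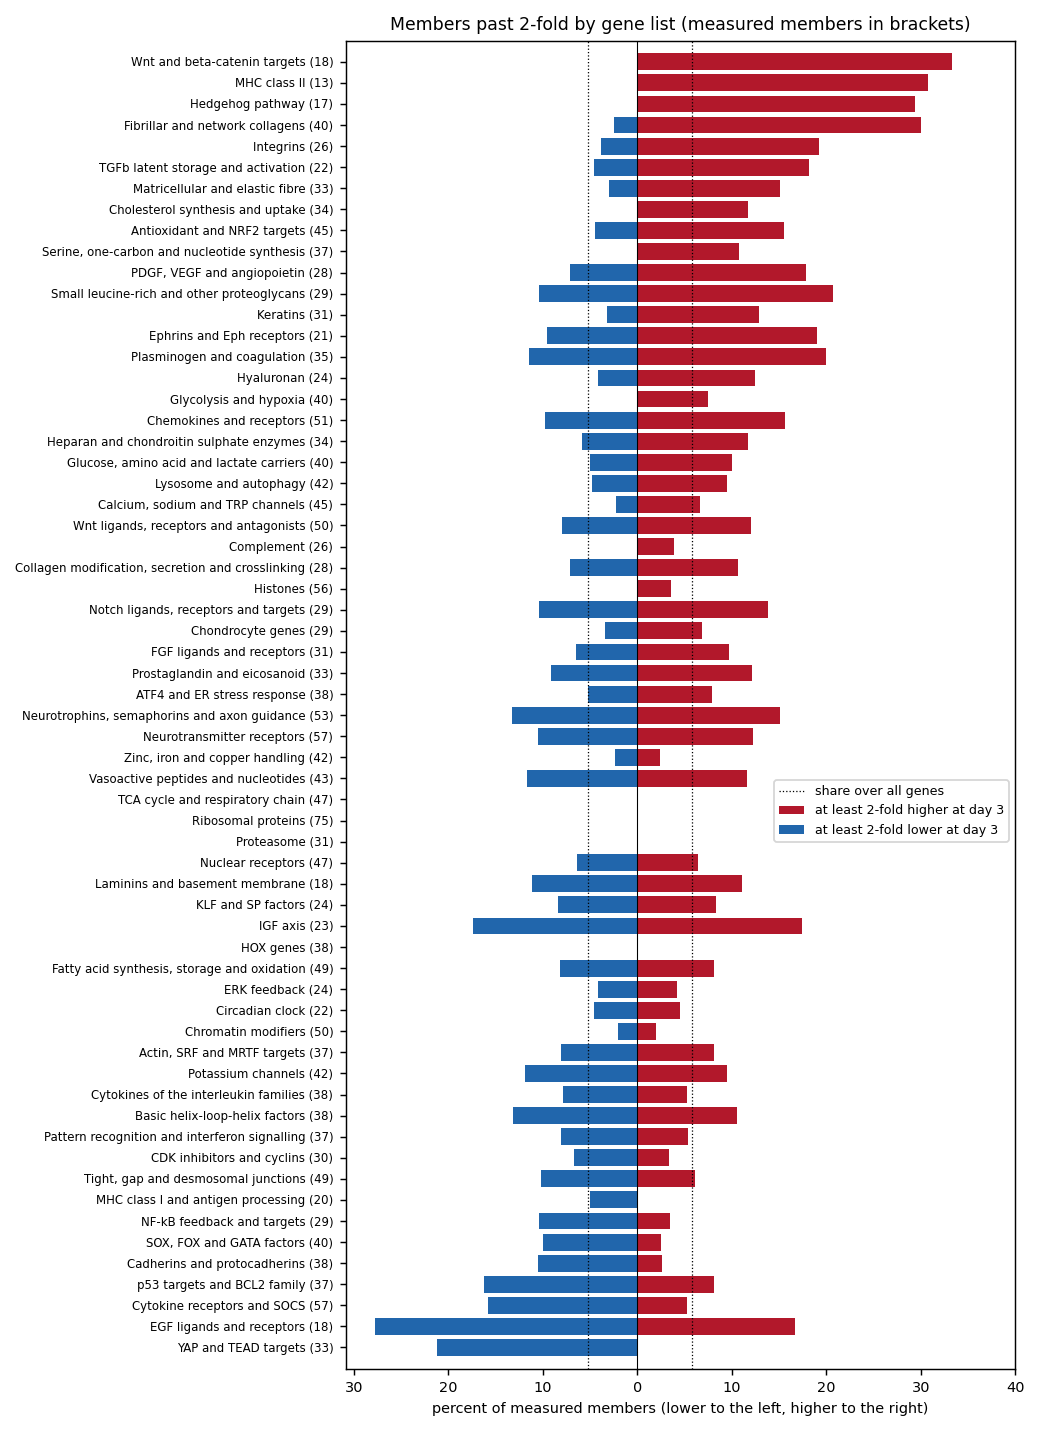
Share of the measured members of each of 62 of the 63 gene lists that were past 2-fold in the higher (right) or lower direction (left) at day 3, with the number of measured members in brackets and lists ordered by the higher minus the lower share; dotted lines mark the shares over all 17185 genes, 5.77% and 5.26%. Collagens, Hedgehog genes and Wnt targets lie towards the top and YAP and TEAD targets at the bottom, with 7 of 33 lower and 0 higher.

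The actin and contractile genes, in a list that also holds targets of SRF, had no common direction. Of 37 measured 3 were higher and 3 lower (8.11% each, beside 5.77% and 5.26% over all genes), and the median was -0.003. ACTA2, smooth muscle alpha actin and the usual marker of myofibroblasts, had 672 at day 3 and 81.2 in untreated cells and ended just under the level filter. TAGLN, which encodes the smooth muscle protein SM22 alpha, differed the other way, with 199 at day 3 and 855 in untreated cells. FLNC, a muscle filamin, was 2.79-fold lower, with 888 at day 3 and 2478 in untreated cells. CNN1, smooth muscle calponin, was 3.10-fold higher and dim, with 348 at day 3 and 112 in untreated cells. ACTB and ACTG1, the cytoplasmic actins, and MYL6, a myosin light chain, were bright on both arrays and differed by -0.06, -0.07 and 0.16 in log2.

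Genes listed as targets of YAP and TEAD, which respond to adhesion and cell tension, were lower or within 2-fold. The list also holds genes that act on YAP, such as LATS1. Of 33 measured genes 0 were higher and 7 lower by 2-fold or more. Of the lower ones 4 passed the filter, and over the whole list 24 lay below 0. The lower share was 21.2%, beside 5.26% over all genes. The median was -0.34, and -0.26 after centring on level. AJUBA, a LIM protein that binds the LATS kinases, had 2073 at day 3 and 4388 in untreated cells. NUAK2, a kinase gene, was 3.47-fold lower and not past the filter, with 169.6 at day 3 and 589 in untreated cells. CCN1, a matricellular target of YAP, was within 2-fold, with 10762 at day 3 and 12445 in untreated cells. ANKRD1, TGFB2, EDN1 and AMOTL2 were also among the lower members. The list shares ANKRD1 with the actin list, EDN1 with the vasoactive peptides and CCN1 with the matricellular genes, so it is not independent of those lists. LATS1, a kinase gene that restrains YAP, was the remaining lower member, with 57.8 at day 3 and 126 in untreated cells, with the day 3 value in the lowest quartile.

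Growth factor systems were mixed within each family. In the epidermal growth factor family 3 of 18 genes were higher and 5 lower. EGFR had 239 at day 3 and 726 in untreated cells, and the ligand genes HBEGF and NRG1 were also lower, with 1874 at day 3 and 5457 in untreated cells for HBEGF, and 213 at day 3 and 757 in untreated cells for NRG1. All 7 probe sets of NRG1 lay below 0, between -2.28 and -0.87. The ligands EREG and AREG, neighbouring genes, were higher, with 3642 at day 3 and 1339.6 in untreated cells for EREG, and 1079 at day 3 and 501 in untreated cells for AREG. ERBB4 was 7.37-fold lower, with both values in the lowest quartile.

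In the insulin-like growth factor axis the binding proteins IGFBP5 and IGFBP7 were higher, with 3252 at day 3 and 243 in untreated cells for IGFBP5 and 16725 at day 3 and 5546 in untreated cells for IGFBP7. IGF2, a growth factor of fetal tissues, was 2.71-fold higher, with 4645 at day 3 and 1714 in untreated cells. PAPPA, the protease that cuts IGFBP4, was 3.55-fold lower but dim, with 67.4 at day 3 and 239 in untreated cells. It passed the level filter only through the sphere array. IRS2, the adaptor of the receptor, was 2.98-fold lower, with 592 at day 3 and 1763 in untreated cells. The stanniocalcin gene STC1, whose product inhibits PAPPA, was 2.26-fold lower. In this list 4 of 23 genes were higher and 4 lower.

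Fibroblast growth factors were mostly dim, and 5 of 31 passed the filter. FGFR4 was 2.21-fold higher and FGF3 2.26-fold, while FGF2 was 3.08-fold lower, with 64 at day 3 and 197 in untreated cells. PDGFRB and PDGFRA, receptors of mesenchymal cells for platelet-derived growth factor, were both higher, with 5239.5 at day 3 and 619 in untreated cells for PDGFRB and 3263 at day 3 and 1592 in untreated cells for PDGFRA. ANGPTL4, a lipase inhibitor, had 2726 at day 3 and 1177 in untreated cells. VEGFA was within 2-fold, with 4224 at day 3 and 7029 in untreated cells. Feedback genes of the ERK pathway were mostly within 2-fold, with DUSP1, a MAP kinase phosphatase of the immediate early class, with 9081 at day 3 and 3575 in untreated cells and the Sprouty gene SPRY1 at 726 at day 3 and 1716 in untreated cells. DUSP6 and SPRY2 differed by 0.46 and -0.24 in log2.

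Guidance molecules of axons and their receptors also act in mesenchymal cells, and 8 of 53 were higher and 7 lower. UNC5B, a netrin receptor gene, was 12.2-fold higher, with 1070.2 at day 3 and 87.4 in untreated cells, while the ligand NTN4 was lower, with 39.1 at day 3 and 769 in untreated cells. PLXNB1, a semaphorin receptor gene, was 6.59-fold higher, with 715 at day 3 and 108 in untreated cells. BDNF, a neurotrophin gene, was lower, with 64 at day 3 and 1014 in untreated cells. SEMA3A, a repulsive semaphorin that acts in bone, had 1234 at day 3 and 2619 in untreated cells. Of the Eph receptors EPHB3 was 6.93-fold higher and EPHA4 3.14-fold, while EPHA2 was 2.16-fold lower, with 3137 at day 3 and 6762 in untreated cells.

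Genes of the Wnt system differed at several levels. Of 18 targets and nuclear partners of beta-catenin, 6 were higher by 2-fold or more, 4 of these past the filter, and 0 lower, with a median of 0.25. LEF1 had 6901 at day 3 and 2075 in untreated cells, and the transcription factor gene TCF7L1 and the receptor gene TNFRSF19 were 2.16-fold and 2.07-fold higher. AXIN2, a common readout of the pathway, was within 2-fold, with 349 at day 3 and 202 in untreated cells. Among ligands, receptors and antagonists WNT5A, a ligand that mostly acts without beta-catenin, had 3189 at day 3 and 1394 in untreated cells. WNT5B, FZD2 and the antagonist FRZB were lower along with DKK1, with 1700.2 at day 3 and 3975 in untreated cells for FZD2. Over that list 6 of 50 were higher and 4 lower, and its median was 0.28 over all members but -0.0901 over the 19 past the filter.

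Hedgehog genes had 5 of 17 members at least 2-fold higher and 0 lower, and a median of 0.59. BOC, a co-receptor, had 1345 at day 3 and 347 in untreated cells, and SUFU, the inhibitor of GLI factors, 1106 at day 3 and 511 in untreated cells. GLI1, a target of the pathway, was higher but dim, with 69.8 at day 3 and 28.2 in untreated cells. The Notch system was split, with 4 of 29 genes higher (13.8%) and 3 lower (10.3%), beside 5.77% and 5.26% over all genes. Its receptor gene NOTCH1 was 3.57-fold higher, with 1861 at day 3 and 521 in untreated cells. The target HES1 was within 2-fold, with 17115 at day 3 and 10864 in untreated cells. HEY2, another target, was higher from a value in the lowest quartile. The lower members were DNER and DLL4, each with a day 3 value in the lowest quartile, and MFNG, which was not past the filter.

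**Figure D5:**
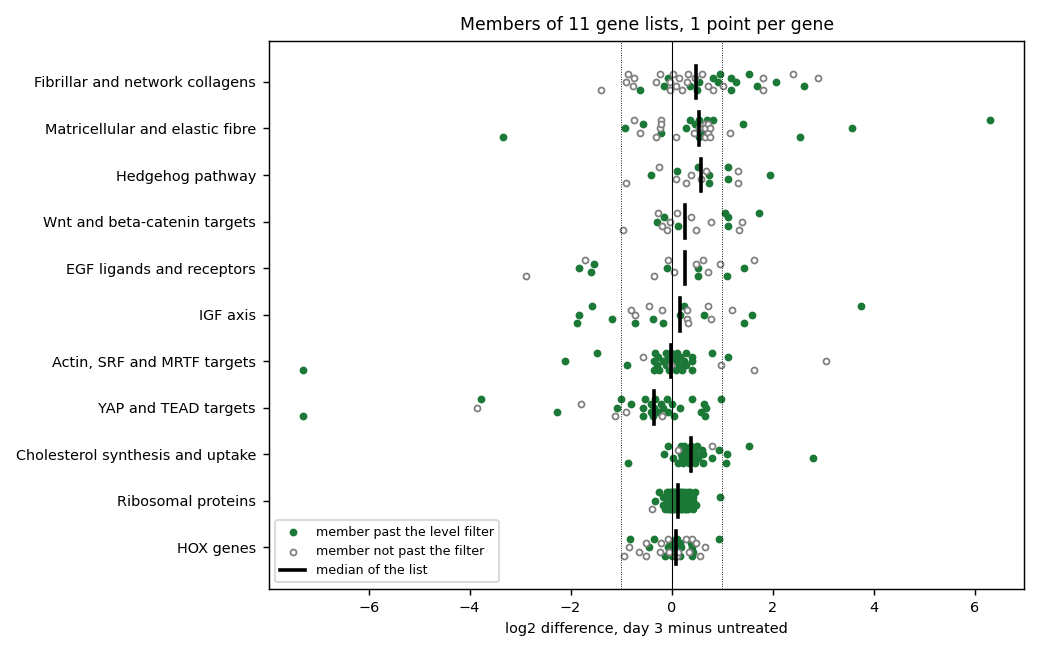
Log2 difference (day 3 minus untreated) of every measured member of 11 gene lists, 1 point per gene, with filled points for members past the level filter and a bar at the list's median; dotted lines mark 2-fold. Collagens had a median of 0.48 and YAP and TEAD targets of -0.34, growth factor families spread to both sides, and ribosomal protein and HOX genes stayed within 2-fold.

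Transcription factors beyond the immediate early class differed in single members. KLF13 was 3.11-fold higher and KLF9, a target of glucocorticoid and thyroid hormone, 2.80-fold lower, with 373 at day 3 and 1045 in untreated cells. TFEB and MITF are related factors of lysosomes and pigment cells. TFEB was 3.04-fold higher, with 700.3 at day 3 and 230.5 in untreated cells, and MITF 3.54-fold lower, with 215 at day 3 and 764 in untreated cells. MSC, the gene of musculin, was 5.08-fold higher, with 673 at day 3 and 132 in untreated cells, and passed the filter only through the sphere array. SOX7, an endothelial SOX factor, was 5.25-fold lower, with 331 at day 3 and 1735 in untreated cells. Among nuclear receptors NR4A1 and NR4A2, orphan receptors of the immediate early class, were 5.36-fold and 12.8-fold higher. NR1D2, a repressor of the circadian clock, was 3.27-fold lower, with 239 at day 3 and 782 in untreated cells, and PER1 was within 2-fold, with 969 at day 3 and 567 in untreated cells. No HOX gene of 38 reached 2-fold, and the range of differences was -0.95 to 0.94 in log2. Of 50 chromatin modifiers 1 was higher, SIRT4, and 1 lower, the histone deacetylase gene HDAC9, neither past the filter.

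Interleukins, cytokine receptors and chemokines were mostly dim or within 2-fold. IL6 was 2.01-fold lower, with 355 at day 3 and 716 in untreated cells, a difference at the threshold that fell short of 2-fold under 4 other settings, between -0.90 and -0.96 in log2. Its receptor gene IL6R was 3.04-fold lower, with 493 at day 3 and 1497 in untreated cells. CXCL8, CXCL3 and CXCL1, chemokines that attract neutrophils, were lower and not past the filter, with CXCL8 at 217 at day 3 and 521 in untreated cells. Over the interleukin list 2 of 38 were higher and 3 lower, and over cytokine receptors and SOCS genes 3 of 57 higher and 9 lower. The interleukin shares were near those over all genes, and of the receptor and SOCS genes past the filter 2 were higher and 2 lower. Of 51 chemokines and their receptors 8 were higher and 5 lower, and 5 passed the filter. CX3CL1, a membrane-bound chemokine, was 2.29-fold higher, with 1298 at day 3 and 566 in untreated cells. ACKR3, a scavenger receptor for CXCL12, was 7.81-fold higher, with 1229 at day 3 and 157 in untreated cells. BIRC3, an inhibitor of apoptosis induced by NF-kB, was 8.62-fold lower, with a day 3 value in the lowest quartile. NFKBIA, the inhibitor of NF-kB, was within 2-fold and differed by 0.54 in log2.

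Genes of antigen presentation and nucleic acid sensing were split. CGAS, the sensor of cytosolic DNA, was 2.88-fold lower, with 1696 at day 3 and 4884 in untreated cells. TAP2, a peptide transporter of the class I pathway, was 2.13-fold lower but -0.86 in log2 with its brightest probe set, while the class I genes HLA-B and HLA-C differed by 0.56 and 0.41 in log2. Of 13 class II genes 4 were higher and 0 lower, with 2 past the filter. HLA-DRB1 and HLA-DRB5 were 3.55-fold and 3.32-fold higher. They are near-identical copies whose probes may share signal, and CIITA, the master regulator of class II genes, had 51.2 at day 3 and 51.3 in untreated cells.

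Plasma protein genes and serine protease inhibitors gave several large differences. SERPINF2, the alpha 2 antiplasmin gene, was 10.8-fold higher, with 2447 at day 3 and 227 in untreated cells, and its neighbour SERPINF1, which encodes the antiangiogenic factor PEDF, 2.39-fold, with 16847 at day 3 and 7062 in untreated cells. SERPINA1, alpha 1 antitrypsin, had 2598 at day 3 and 225 in untreated cells. PLAT, tissue plasminogen activator, was 2.27-fold higher, while THBD, thrombomodulin, and SERPINB2, plasminogen activator inhibitor 2, were 5.05-fold and 5.87-fold lower. THBD had 203 at day 3 and 1028 in untreated cells and SERPINB2 had a day 3 value in the lowest quartile. In all 7 of 35 were higher and 4 lower. Complement genes, which also encode plasma proteins, had 1 of 26 higher and 0 lower, and 4 past the filter.

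Lipid mediators and vasoactive peptides differed in single members. PTGER4, a receptor of prostaglandin E2, was 6.34-fold lower, with 281 at day 3 and 1781 in untreated cells, and the prostaglandin transporter gene SLCO2A1 4.33-fold lower. PTGS2, the inducible cyclooxygenase gene, was within 2-fold, with 1884 at day 3 and 993 in untreated cells. RAMP1, a subunit of the calcitonin gene-related peptide receptor, was 2.99-fold higher and the natriuretic peptide receptor gene NPR2 2.29-fold. Of 57 neurotransmitter receptor genes 7 were higher and 6 lower, and 10 were past the filter. CHRM3, a muscarinic receptor, was 5.32-fold higher, with 812 at day 3 and 153 in untreated cells.

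Ion channels and junction genes were mostly dim. KCNJ2, an inward rectifier, was 5.30-fold lower, with 391 at day 3 and 2069 in untreated cells, and KCNN4, a calcium-activated potassium channel, 3.29-fold higher, with 2937 at day 3 and 894 in untreated cells. CLDN11, a claudin, was 4.29-fold lower, with 649 at day 3 and 2787 in untreated cells, and the desmosomal gene DSP 2.98-fold higher, with 939.6 at day 3 and 315 in untreated cells. GJA1, which encodes the gap junction protein connexin 43, differed by -0.11 in log2. Of 31 keratins 4 were higher and 1 lower, and KRT81, a hair keratin close to KRT83, had 10442 at day 3 and 4198 in untreated cells. KRT8 and KRT18, keratins of simple epithelia that were bright on both arrays, differed by -0.33 and -0.05 in log2.

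In lipid metabolism the cholesterol genes lay mostly above 0, by small amounts. Of 34 measured genes 31 lay above 0 and 3 below, 4 were at least 2-fold higher and 0 lower, and the median was 0.38. The 4 were ABCG1 and ABCA1, which export cholesterol, MYLIP, a ubiquitin ligase gene of cholesterol uptake, and INSIG2, which holds back SREBP. ABCG1 had 1997 at day 3 and 286 in untreated cells, ABCA1 had 3387 at day 3 and 1579 in untreated cells and MYLIP had 6282 at day 3 and 2169.6 in untreated cells. ABCA1, ABCG1 and MYLIP are known targets of the oxysterol receptor LXR. FASN, fatty acid synthase, was 2.24-fold higher, with 4255 at day 3 and 1898 in untreated cells, and the desaturase gene FADS2 2.85-fold. FABP4, a fatty acid carrier of adipocytes, was 2.55-fold lower, with 894 at day 3 and 2284 in untreated cells.

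Central carbon metabolism stayed within 2-fold in its mitochondrial steps. Of 47 genes of the tricarboxylic acid cycle and respiratory chain 0 were past 2-fold, with a median of 0.01, and 45 passed the level filter. PFKFB4 and EGLN3, genes that respond to hypoxia, were 2.90-fold and 2.81-fold higher, with 3616 at day 3 and 1246 in untreated cells for PFKFB4, while GAPDH differed by 0.13 and HIF1A by -0.32 in log2. Genes of serine, one-carbon and nucleotide synthesis lay mostly slightly below 0, with 29 of 37 below 0 and a median of -0.19. In this list 4 members were past 2-fold in the higher direction, among them FOLR1, described below with the genes low on 1 array. Of 40 carriers of glucose, amino acids and lactate 4 were higher and 2 lower. SLC2A3, a glucose carrier, was 2.09-fold higher and SLC39A8, a zinc carrier, 2.38-fold lower. MT2A, a metallothionein, differed by -0.09 in log2.

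Among stress responses the antioxidant list had 7 of 45 members higher and 2 lower. The higher ones included AKR1C1, AKR1C2 and AKR1C3, near-identical aldo-keto reductases whose probes may share signal, with 2999 at day 3 and 1142 in untreated cells for AKR1C1. HMOX1, heme oxygenase 1, was within 2-fold, with 1850.4 at day 3 and 1357 in untreated cells. CHAC1, a glutathione-degrading gene induced by ATF4, was 2.59-fold lower, with 1273 at day 3 and 3298 in untreated cells, and TRIB1 and TRIB2, pseudokinase genes, were 2.17-fold and 2.12-fold higher. Lysosomal and autophagy genes had CTSB, cathepsin B, 2.33-fold higher, with 4476 at day 3 and 1925 in untreated cells, and GABARAPL1, of autophagosomes, 2.67-fold, with 5219 at day 3 and 1954 in untreated cells. BBC3, a killer protein of the BCL2 family induced by p53, was 2.52-fold higher, with 2998 at day 3 and 1189 in untreated cells, while BCL2L1, the survival gene of BCL-XL, was 2.51-fold lower, with 1326 at day 3 and 3334 in untreated cells. PLK2, a kinase induced by p53 and serum, was 2.28-fold lower.

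Genes of the basic machinery of the cell mostly stayed close to 0. Ribosomal protein genes had 0 of 75 past 2-fold in either direction, differences between -0.39 and 0.95 and a median of 0.12. Proteasome genes had 0 of 31 past 2-fold and differences between -0.43 and 0.24. Of the ribosomal genes 74 and of the proteasome genes 31 passed the level filter. Bright genes of any kind were seldom past 2-fold, with 0.756% in the brightest of 10 equal groups by level, so these counts are not particular to the 2 lists. Histone genes had 2 of 56 higher, H2BC5 and H2BC21, and 0 lower, and their near-identical copies may share signal. Cyclins, CDK inhibitors and E2F genes had a median of -0.22, with 21 of 30 below 0. By the 2-fold rule 1 was higher (3.33%) and 2 lower (6.67%), shares near those over all genes. The higher one, the CDK inhibitor gene CDKN1A, passed the filter, with probe sets at 1.07 and 1.15 in log2. Neither lower one passed it. CCND1, which encodes cyclin D1, differed by -0.15 in log2, and E2F8, under the filter, was 4.93-fold lower.

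Markers of bone cells and of other cell types were read on both arrays. Of 8 osteoblast markers 5 reached an intensity of 685 on each array, and the summed intensity was 24828 at day 3 and 12641 untreated, where COL1A1 gave most of the difference. SP7, the osteoblast factor osterix, and IBSP, bone sialoprotein, were in the lowest quartile on both arrays. Endothelial markers summed to 1188 at day 3 and 315 untreated, with PECAM1 as 1 of 6 at or above 685 at day 3 and 0 untreated. PECAM1 gave most of that difference, with 944 at day 3 and 65.6 in untreated cells. KDR differed the other way, with 11.7 at day 3 and 55 in untreated cells. KDR, VWF and TEK were in the lowest quartile on both arrays. Macrophage markers summed to 1377 at day 3 and 3644 untreated, where CD68, a lysosomal protein also made outside macrophages, had 1001 at day 3 and 3006 in untreated cells and PTPRC, TYROBP and CD163 were in the lowest quartile on both arrays. Lymphocyte markers summed to 706 at day 3 and 845 untreated, of which CD3D gave 599 at day 3 and 766 in untreated cells and the other 4 were in the lowest quartile. Epithelial markers summed to 44988 at day 3 and 50537 untreated, nearly all from KRT8 and KRT18, with CDH1 in the lowest quartile. Adipocyte markers summed to 991 at day 3 and 2361 untreated, led by FABP4. The 3 neuron markers summed to 16350 at day 3 and 14768 untreated, nearly all from 1 gene, with 15618 at day 3 and 14094.5 untreated. The 4 muscle markers summed to 934 at day 3 and 890.3 untreated, mostly from 1 gene, with 683 at day 3 and 709 untreated. The 4 melanocyte markers, all in the lowest quartile, summed to 83.4 at day 3 and 118 untreated. The part of other cell types in the differences above was not tested.

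A further 10 genes lay in the lowest quartile on 1 array and at an intensity of 685 or more on the other. Those high at day 3 were DPT, MYL10, TNFAIP6, PTGDS, FOLR1 and MTURN. MTURN, which encodes maturin, had 706 at day 3 and 62.5 in untreated cells, and FOLR1, a folate receptor, 952 at day 3 and 55.7 in untreated cells. Those high in untreated cells were ANKRD1, NTN4, DNER and ENTPD3. DNER, a Notch ligand known from neurons, had 59.0 at day 3 and 835 in untreated cells, and ENTPD3, which breaks down extracellular nucleotides, 60.7 at day 3 and 728 in untreated cells. The folds of these genes depend on how the dim value is treated. Once 64 was added to both intensities, the difference in log2 became 4.64 in place of 6.31 for DPT, 2.61 in place of 3.50 for MTURN, -5.08 in place of -7.30 for ANKRD1 and -2.67 in place of -3.59 for ENTPD3. Each of the 10 stayed past 2-fold.

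Probe sets without a gene symbol here were read separately, since they entered no gene value. Of 26167 such probe sets 11804 passed the level filter, of which 547 (4.63%) were higher at day 3 by 2-fold or more and 509 (4.31%) lower. The shares were close to those of the named genes for higher values and above them for lower values. The furthest were 38.5-fold higher and 76.0-fold lower, and they are not described further because no gene could be given to them here.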

How the data were processed

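Total RNA from 3 MNNG/HOS cultures was hybridised with Cy3 label to single-colour arrays, 1 per culture, per the labels' protocols, and 2 of these arrays were compared here. Per the submitters' processing notes RMA was used to make the deposited values, which are linear intensity values, 1 for each probe set on each array. The version and settings were not given in the sources used here, nor was the annotation build. RMA corrects background, equalises the arrays' distributions and combines the probes of each set, so a difference shared by most genes would not be visible, and folds from low values are uncertain. Median intensities were 437 at day 3 and 455 in untreated cells, and Pearson's r across all probe sets was 0.977. Precision is limited by the single array of each culture.

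Deposited intensities were converted to log2 without an offset. Probe sets were named by the platform's gene table, updated through gene identifiers (18188), or by RefSeq accession in a GRCh38.p14 gene table (678), and 26167 stayed unnamed. Probe sets of a gene were averaged in log2. Coordinates and promoter windows are those of RefSeq, on GRCh38.p14, for 13780 matched genes. The method was run on simulated data with planted differences and the same noise at every level. On these arrays the spread depended on level, so that run gives no rate of false calls for them. Python 3.11.15 was used with pandas 2.3.3, numpy 2.4.6 and matplotlib 3.10.9.

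Members, lists and tests were chosen with earlier results of these data known. Genes were named by a rule. It took the 20 highest and 20 lowest bright genes past 2-fold, up to 8 members past 2-fold and 3 within it from each list, fixed readouts such as TGFBI and ACTA2, the 5 genes whose probe sets differed most, and up to 6 genes per direction that were low on 1 array. COL5A1, COL6A1, COL7A1, COL17A1, CXCL1, EGR1, GJA1, HLA-C, MYL6, NR4A3, PLAT, SEMA3A, SERPINF1, SERPINH1, SSPN and WNT5B, and marker genes, were named outside that rule after their values were seen. Alternatives changed the level filter, the value per gene, the scaling, an offset of 64 and the threshold of 2-fold. Some genes that the rule selects are not reported here.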

Additional observations from a re-analysis of the deposited data

How the results depend on the processing

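The counts past 2-fold depended most on the level filter and the threshold. With no filter 991 genes were higher and 904 lower, with a filter at the upper quartile 127 and 57, and with the filter on both arrays 183 and 128, against 427 and 319. At 1.5-fold the counts were 908 higher and 1003 lower, and at 3-fold 161 and 101. Under the filter on the higher of the 2 compared arrays, the brightest or the median probe set, centring, quantile normalization or an offset of 64, the counts lay between 387 and 483 higher and between 271 and 321 lower.

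Of 349 named genes past 2-fold, 95 fell short of it with 64 added and between 0 and 14 under each of the 5 other settings tried on single genes. Those in the text that did so with 64 added include LRRC32, ERBB4, GLI1, HEY2, LATS1, CXCL3, TNFRSF19, INSIG2, SIRT4, RNF6 and IL6. BCL2 reversed to 0.16 with its brightest probe set. Apart from the reversals below, list medians moved by over 0.1 in log2 in 27 of 71 lists over members past the filter, 24 of 72 with 64 added, 11 of 72 with level centring and 1 with the brightest probe set. Medians reversed over members past the level filter alone, to -0.0901 for Wnt ligands, receptors and antagonists, -1.59 for macrophage markers, which then hold 1 gene, and -0.0536 for muscle markers; the construction of that setting leaves fewer genes in each. No paired analysis was possible because each group had 1 array, and leaving out a replicate could not be done for the same reason. Level centring by group was added after the data were seen.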

Other observations

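Genes next to each other on a chromosome sometimes differed together, and they were picked out here after their values were seen. Pairs were formed from consecutive protein-coding genes of the RefSeq table that were measured here, so unmeasured or non-coding genes may lie between them. In 5752 such pairs both genes passed the level filter. Of these pairs 30 (0.522%) were both at least 2-fold higher at day 3 and 16 (0.278%) both at least 2-fold lower. Of single genes past the filter 4.6% were higher and 3.44% lower. A gene inside a run of neighbours counts in more than 1 pair, and no expected share of pairs was computed. Several pairs belong to families whose probes may share signal, such as AKR1C, hair keratin, chorionic gonadotropin and SPANX genes. Of the other pairs, CD274 and PDCD1LG2, which encode the PD-1 ligands PD-L1 and PD-L2, were both lower. CD274 had 258 at day 3 and 1152 in untreated cells, and PDCD1LG2 had 276 at day 3 and 1043 in untreated cells. CCDC85B and FOSL1, of which FOSL1 is a Fos family gene, lie side by side on chromosome 11, and FOSL1 was 2.77-fold lower, at 1985 at day 3 and 5489 in untreated cells, while FOS and FOSB were higher. EVI2A and EVI2B, which lie within an intron of NF1, had 893 at day 3 and 2693 in untreated cells for EVI2A and 181 at day 3 and 2071 in untreated cells for EVI2B.

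On chromosome 21 the neighbours ABCG1, TFF3 and TFF2 were all higher. TFF3 and TFF2 are secreted trefoil peptides of mucous membranes, with 5003 at day 3 and 2439 in untreated cells for TFF3 and 733 at day 3 and 102 in untreated cells for TFF2. On chromosome 14 SERPINA6, which encodes corticosteroid-binding globulin, had 708 at day 3 and 105 in untreated cells, next to SERPINA1. On chromosome 13 ZIC2 and ZIC5, zinc finger factors of early neural development, were lower, with 415 at day 3 and 1013 in untreated cells for ZIC2 and 84.3 at day 3 and 305 in untreated cells for ZIC5. ZIC5 passed the level filter only through the sphere array. The desaturase genes FADS2 and FADS3 on chromosome 11 were both higher, with 3078 at day 3 and 1457 in untreated cells for FADS3. GAS6, a ligand of the receptor AXL, was lower on chromosome 13, at 549.5 at day 3 and 2213 in untreated cells. These are values from 1 array a side, and no test of the pairing was made.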
